A study of Mus musculus with 18 samples.

Results

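The regulators of G-protein signaling (RGS) are proteins that switch off signals from G protein-coupled receptors. An activated receptor loads a G alpha subunit with GTP, and the RGS domain speeds up the hydrolysis of that GTP, so that the G alpha and G beta-gamma subunits reassemble and signaling ends. In lymphocytes they are best known as brakes on chemokine and other chemoattractant receptors, which guide B cells through the follicles of the spleen. The 10 genes described here, Rgs1, Rgs2, Rgs3, Rgs10, Rgs12, Rgs13, Rgs14, Rgs16, Rgs18 and Rgs19, were chosen by symbol from 23420 listed genes, which held 20 symbols made of Rgs and a number.

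RNA was sequenced from spleen B cells that had been purified with beads from MRL/lpr mice, a lupus-prone strain with the Fas lpr mutation, aged 5 to 7 weeks, and kept in culture for 4 h. There were 6 groups with 3 libraries each, 18 in all. The mice of 1 arm were female and all lacked Tlr7. Per the study's methods these female mice were 5 weeks old, where the labels give 5 to 7 weeks for both arms. Cells labelled Tlr9+/- Tlr7-/- (Tlr9het) and Tlr997 Tlr7-/- (Tlr997), in which TLR9 carries the TIR signaling domain of TLR7, were left unstimulated or given 10 µg/ml of the TLR9 agonist CpG. The other arm held cells of male Tlr779 Tlr9-/- mice (Tlr779), whose TLR7 has the TIR domain of TLR9 in place of its own, without agonist or with CL097, an agonist of TLR7, at 5 µg/ml. Per the study's methods, both domain swaps were made by genome editing in the germline, so every cell of the mouse carries them. The libraries of the control genotype of that arm were not analysed here, so its response was read against its own unstimulated cells and against the CpG response of Tlr9het. The treatment protocol in the labels writes Tlr9-/- Tlr7-/- where the sample labels give Tlr9+/-, and the latter were followed. Tlr9 transcripts were at 7.28 to 7.48 log2 CPM in unstimulated Tlr9het and at 7.17 to 7.33 in unstimulated Tlr779, which is labelled Tlr9-/-, so their level does not tell these genotypes apart.

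The deposited values were log2 CPM, base 2 logarithms of counts scaled to a common library total, after the authors' normalization. Pairs of libraries of 1 group correlated at 0.94 to 0.99 over 11676 genes. Replicate 3 of unstimulated Tlr997 stood apart, with r of 0.944 and 0.955 to the other two, and results that change without it are given beside their values. All 8 B cell markers were over 0 log2 CPM in every library, and their summed level was 6100 to 8150 CPM in unstimulated and 2120 to 3940 CPM in stimulated libraries. Macrophage and monocyte markers summed to 131 to 446 CPM in unstimulated and 84.7 to 218 CPM in stimulated libraries. Tlr7 transcripts were listed at 2.68 to 4.28 log2 CPM in Tlr9het and at 4.81 to 5.36 in Tlr997, both labelled Tlr7-/-, and at 6.61 to 7.82 in Tlr779. The other marker lists, summed in CPM over unstimulated and then over stimulated libraries, ranged from 52.9 to 92.0 and 56.4 to 121 for T cells, 35.5 to 175 and 21.0 to 124 for neutrophils, and 13.4 to 478 and 12.4 to 484 for erythroid cells. They ranged from 5.83 to 12.4 and 11.2 to 29.2 for NK cells and from 23.8 to 43.2 and 41.8 to 99.8 for plasmacytoid dendritic cells. Marginal zone B cell markers summed to 397 to 646 and 198 to 264, age-associated B cell markers to 42.1 to 51.7 and 106 to 193, and plasmablast markers to 1080 to 1650 and 2110 to 2630. Fcrl5 and Tbx21 raised the age-associated sum, with means of 4.56 and 1.55 log2 CPM without and 6.98 and 4.88 with CpG in Tlr9het. Itgax was lower (2.58 and 2.13), and both held in each genotype. Itgam was higher with CpG but not with CL097. The plasmablast sum was higher through Irf4, also a gene of activated B cells, with means of 9.43 and 11.04 log2 CPM without and with CpG in Tlr9het. Sdc1 (5.11 and 3.67), Igj (8.62 and 7.89) and Xbp1 (6.89 and 6.38) were lower, in the other genotypes too. Prdm1 was higher in Tlr9het (3.90 and 4.27) and Tlr779 (4.12 and 4.38) but not in Tlr997 (3.57 and 3.46). Tnfrsf17 was higher in Tlr9het (-2.10 and -1.22) and Tlr997 (-4.04 and -2.42) but not in Tlr779 (-2.14 and -2.38). The plasmacytoid dendritic cell sum was higher through Bst2 (4.85 and 5.77 in Tlr9het), while Siglech (2.21 and 1.72) was lower, again in each genotype. Ccr9 was lower with CpG in both genotypes but not with CL097 (0.70 and 0.93 in Tlr779). Klk1 and Cox6a2 differed in direction between genotypes. The part of these shifts in the results below was not tested. With bulk RNA, fewer cells of a type and less RNA per cell cannot be told apart. The labels give 3 mice per genotype but no mouse for each library, so p-values measure the spread between these libraries.

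Of the 10 genes, 5 lie on chromosome 1 (GRCm38 coordinates, GENCODE annotation). Rgs2 (chr1:143999338-144004161), Rgs13 (chr1:144138654-144177372), Rgs1 (chr1:144242296-144249242) and Rgs18 (chr1:144752683-144775435) stand in a row on the minus strand, with gaps of 134.5, 64.9 and 503.4 kb and only Rgs21 annotated as a coding gene between them. Rgs16 (chr1:153740349-153745468, plus strand) follows 8964.9 kb further on. Rgs19 is on chromosome 2 (chr2:181688419-181693977), Rgs3 on chromosome 4 (chr4:62559847-62704001), Rgs12 on chromosome 5 (chr5:34949445-35039644), Rgs10 on chromosome 7 (chr7:128373621-128418758) and Rgs14 on chromosome 13 (chr13:55369732-55384687). Annotated antisense genes share 467 exonic bases with Rgs12 and 236 with Rgs16. The library kit kept the strand of the RNA, but the strand setting of the read counting is not given in the sources used here. If the counting ignored strand, reads of these pairs in the shared bases cannot be told apart.

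Promoter windows of the mouse RefSeq annotation (GRCm38.p6) were at hand for 7 of the 10 genes; Rgs1, Rgs14 and Rgs18 had none. The 250 bases before the start site are shown for Rgs2 and Rgs3, which fell in all 3 stimulus responses, and for Rgs19, the next most abundant member, which was not called with CpG. Capitals mark the CRE core (TGACG), the motif of the factor NF-Y (CCAAT) and the TATA element (TATAAA). They were searched on both strands together with the full CRE (TGACGTCA, which holds the core), the AP-1 motif (TGANTCA), the E-box (CACGTG), the FOXO motif (TGTTTAC), the GC box (GGGCGG, left in lower case) and the NF-kB consensus.
Rgs2, chr1:144004150-144004399, minus strand: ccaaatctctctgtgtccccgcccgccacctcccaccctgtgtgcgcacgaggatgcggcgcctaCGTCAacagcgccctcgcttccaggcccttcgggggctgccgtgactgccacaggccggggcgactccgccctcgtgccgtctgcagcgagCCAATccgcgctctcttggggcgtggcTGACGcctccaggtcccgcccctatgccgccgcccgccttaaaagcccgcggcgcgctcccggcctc
Rgs3, upstream start, chr4:62559597-62559846, plus strand: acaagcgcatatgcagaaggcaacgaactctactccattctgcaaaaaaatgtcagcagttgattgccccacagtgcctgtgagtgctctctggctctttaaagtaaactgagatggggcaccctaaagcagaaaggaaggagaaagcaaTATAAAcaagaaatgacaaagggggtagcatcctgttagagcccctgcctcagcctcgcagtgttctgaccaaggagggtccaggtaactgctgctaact
Rgs3, downstream start, chr4:62619422-62619671, plus strand: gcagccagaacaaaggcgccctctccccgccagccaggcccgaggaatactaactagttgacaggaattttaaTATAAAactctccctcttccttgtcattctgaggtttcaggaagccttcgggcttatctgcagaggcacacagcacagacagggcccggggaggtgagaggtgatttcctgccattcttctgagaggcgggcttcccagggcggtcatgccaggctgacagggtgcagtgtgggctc
Rgs19, chr2:181693978-181694227, minus strand: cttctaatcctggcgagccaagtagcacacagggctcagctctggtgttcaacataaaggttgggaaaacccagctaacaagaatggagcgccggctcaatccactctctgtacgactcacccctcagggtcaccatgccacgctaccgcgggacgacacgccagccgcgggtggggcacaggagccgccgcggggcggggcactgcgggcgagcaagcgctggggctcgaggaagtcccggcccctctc

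The Rgs2 window held 2 CRE cores, 1 NF-Y motif, 4 GC boxes and 72.4% G and C. Each Rgs3 window held 1 TATA element, at 48.4% and 56.8% G and C. The Rgs19 window shown, 1 of 3 for that gene, held a GC box and none of the marked motifs. Of 32851 windows of the same length, 17.8% held a CRE core, 33.8% an NF-Y motif, 12.4% a TATA element, 32.7% a GC box, 6.75% an AP-1 motif and 7.25% the NF-kB consensus. No marked motif was common to the Rgs2 and Rgs3 windows, and a match is a run of letters, not a measured site.

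Of the 10 members, all passed the filter of a value over 0 log2 CPM in at least 3 of the libraries fitted. Of the other 10 Rgs genes listed, only Rgs9 did, and the remaining 9 lay below 0 in every library. Per kb of annotated exon, Rgs2 stood highest in unstimulated cells, at 5.93 log2 CPM per kb in Tlr9het, followed by Rgs19 at 5.17. Rgs1 (2.90), Rgs14 (2.70), Rgs18 (2.53) and Rgs10 (2.00) followed, and Rgs16 (-0.20) and Rgs12 (-0.69) were lowest on this scale. With the median length of coding transcripts in place of all exons, Rgs2 (6.94) and Rgs19 (6.05) were again highest in Tlr9het. In unstimulated Tlr9het, geometric means ran from 222 CPM for Rgs2 to 2.03 CPM for Rgs16. Depth per library is unknown. If the most frequent low value, -5.05 log2 CPM, stands for 0.5 counts, a value of 0 log2 CPM stands for roughly 16.1 reads. Counting noise would then limit Rgs16.

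**Figure D1:**
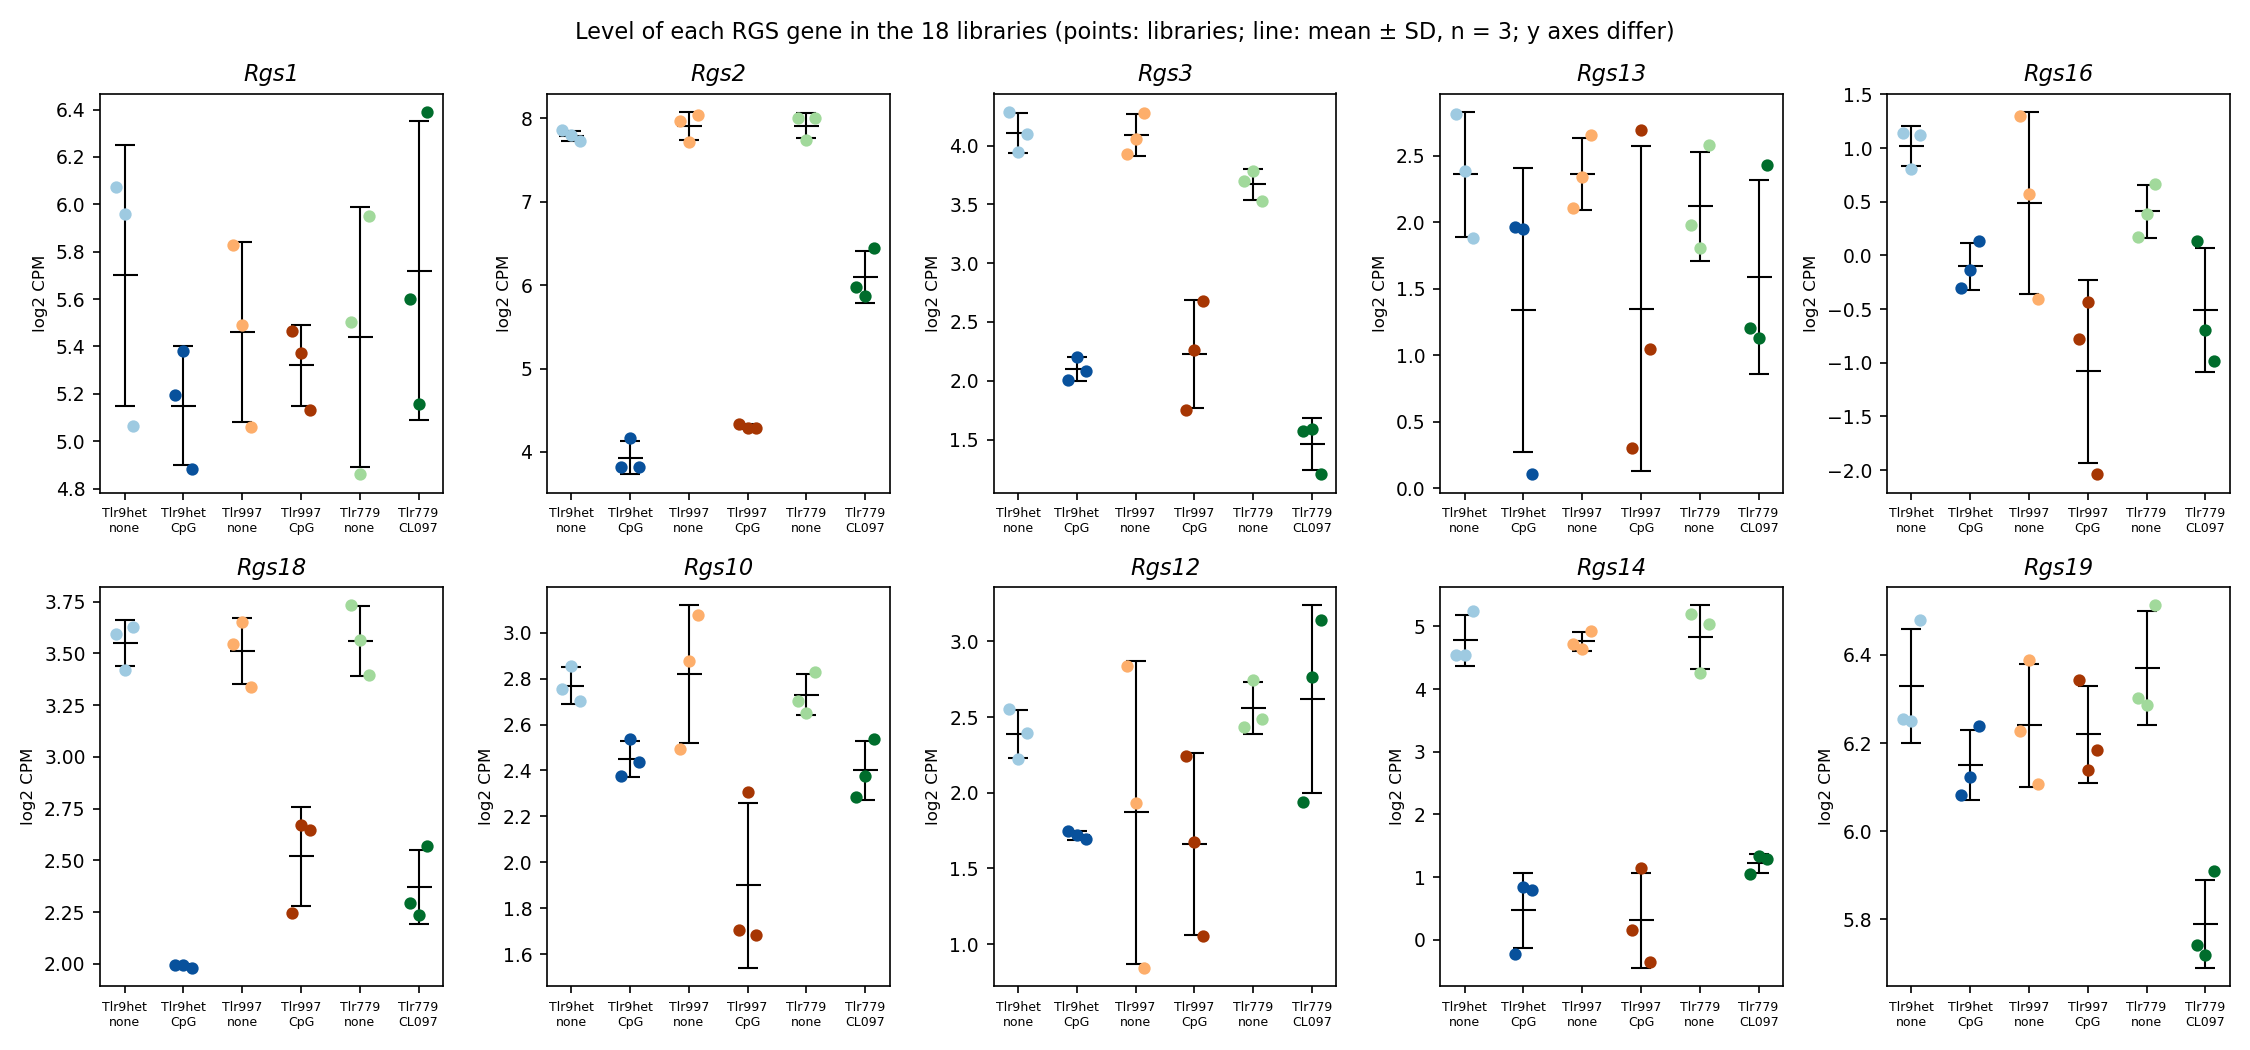
Level of each member in log2 CPM (y axis, its range differs between panels) in the 6 groups (x axis; none, no agonist), with 1 point per library and the mean ± SD of 3 libraries in black. Rgs2, Rgs3, Rgs14 and Rgs18 lay lower in every stimulated library than in every unstimulated library, and the share of all genes that did so was not counted.

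CpG given to Tlr9het cells asks how the members respond to TLR9 signaling. All 10 had a negative log2 fold change, with a median of -1.07 against 0.04 over the 11494 genes tested. In limma's fit, 4 of 10 were called lower (adjusted p under 0.05 and a change over 0.5 on the log2 scale) and 0 higher, where 28.2% of all genes were called lower and 29.7% higher. The 4 were Rgs2, Rgs3, Rgs14 and Rgs18. The replicate numbers paired the Tlr9het libraries, and with the number as a replicate block 8 members were called lower, against 28.5% of all genes.

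With CpG in Tlr997 cells, whose receptor signals through the TIR domain of TLR7, 6 of 10 members were called lower and 0 higher, against 26.0% and 29.6% of all genes. The 6 were Rgs2, Rgs3, Rgs10, Rgs14, Rgs16 and Rgs18, and the median over the 10 was -1.0 against 0.07 over all genes. With CL097 in Tlr779 cells, 5 of 10 were called lower, namely Rgs2, Rgs3, Rgs14, Rgs18 and Rgs19, and 0 higher, against 23.6% and 22.7% of 11082 genes. The median there was -0.75 against -0.02, and 2 members, Rgs1 and Rgs12, had a positive sign. In these 3 fits, 0 members of positive sign had an unadjusted p under 0.05. Rgs2, Rgs3, Rgs14 and Rgs18 were called lower in all 3 responses, without each library in turn as well. The share of all genes called lower in all 3 was not counted, so this overlap has no background to stand against.

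**Figure D2:**
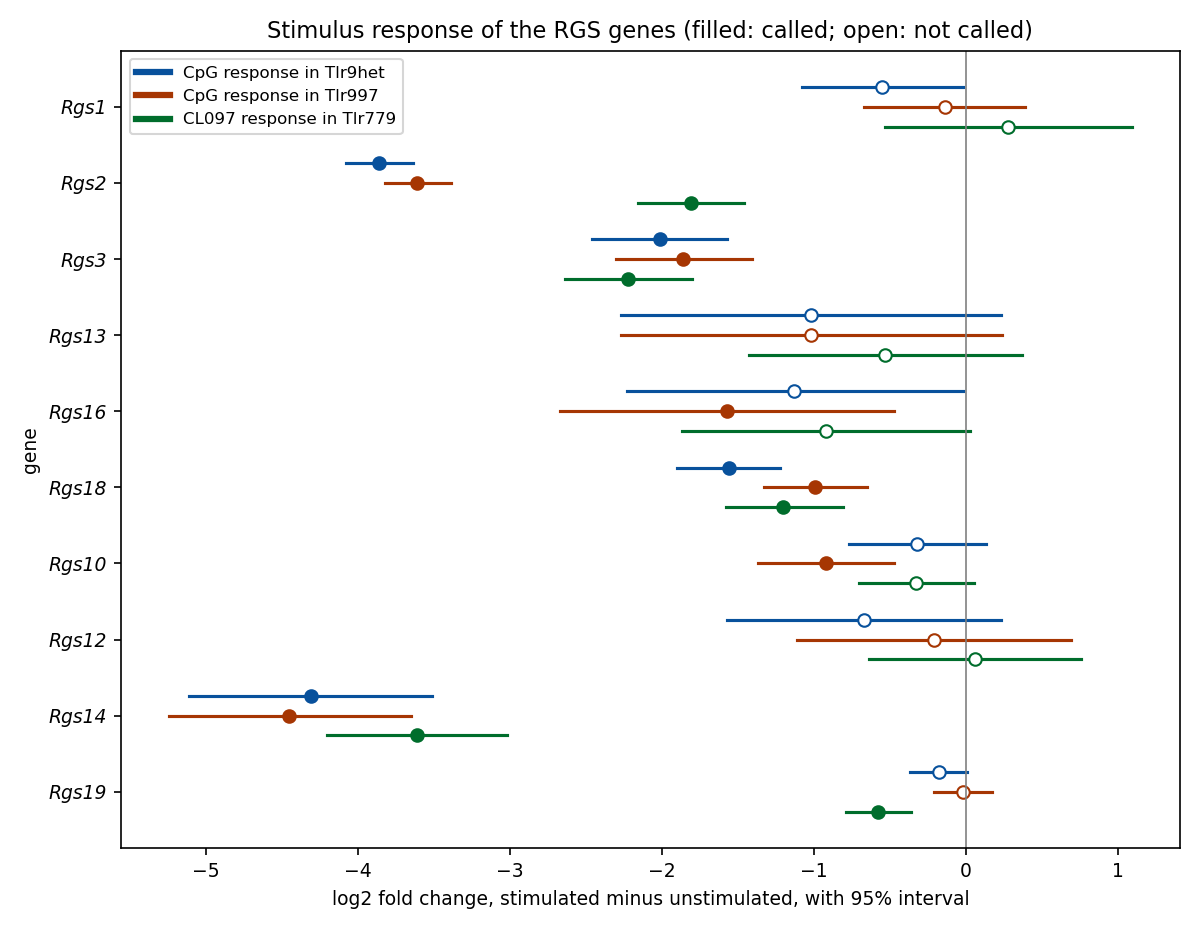
Log2 fold change of each member, stimulated minus unstimulated (x axis), with its 95% interval from limma, for the 3 stimulus responses; filled points were called. The intervals of Rgs2, Rgs3, Rgs14 and Rgs18 lay below 0 in all 3 responses, and those of Rgs2 with CpG (-4.08 to -3.64 in Tlr9het) and with CL097 (-2.16 to -1.46) did not meet.

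Rgs1, Rgs2, Rgs3, Rgs13, Rgs16 and Rgs18 belong to the R4 subfamily, mostly small proteins that are little more than an RGS domain. Rgs2, which acts with preference on the Gq class of G alpha subunits, was the most abundant of them. Unstimulated Tlr9het libraries had 7.86, 7.80 and 7.73 log2 CPM of Rgs2, and those with CpG 3.82, 4.16 and 3.82. Unstimulated Tlr997 libraries had 7.97, 7.72 and 8.04, and those with CpG 4.33, 4.29 and 4.29. In Tlr779 the values were 8.01, 7.74 and 8.0 without and 5.98, 5.87 and 6.45 with CL097. Stimulated and unstimulated libraries stood far apart in each arm, and the CL097 libraries lay between the unstimulated ones and those with CpG.

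Rgs2 fell 14.5-fold with CpG in Tlr9het, by 3.86 on the log2 scale (SE 0.10, adjusted p = 3.8e-12). It fell 12.2-fold in Tlr997, with a log2 change of -3.61 (SE 0.10, adjusted p = 8.2e-12). With CL097 it fell 3.52-fold, with a log2 change of -1.81 (SE 0.15, adjusted p = 3e-05). In the order of group means, the 3 unstimulated groups overlapped with their neighbours, while Tlr779 with CL097 (6.10 ± 0.31, SD, n = 3), Tlr997 with CpG (4.30) and Tlr9het with CpG (3.93 ± 0.20) did not overlap.

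Rgs3, a member with several isoforms that acts on Gi and Gq subunits, was at 4.29, 3.94 and 4.10 log2 CPM in unstimulated Tlr9het and at 2.01, 2.20 and 2.08 with CpG. Its Tlr997 libraries were at 3.93, 4.06 and 4.28 without and 1.75, 2.26 and 2.68 with CpG. In Tlr779 it was at 3.70, 3.78 and 3.53 without and 1.58, 1.59 and 1.20 with CL097. The groups with and without agonist were apart in each case. The log2 fold changes were -2.01 (SE 0.21, adjusted p = 9.7e-07), -1.86 (SE 0.21, adjusted p = 2.5e-06) and -2.22 (SE 0.18, adjusted p = 2.8e-05). The CL097 group was the lowest for Rgs3, and it did not overlap with Tlr9het with CpG.

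Rgs18, known from platelets and other blood cells, was at 3.59, 3.42 and 3.63 log2 CPM in unstimulated Tlr9het, and at 1.99, 2.00 and 1.98 with CpG. The Tlr997 libraries were at 3.55, 3.65 and 3.34 without and at 2.25, 2.67 and 2.65 with CpG, and in Tlr779 at 3.73, 3.56 and 3.39 without and 2.30, 2.24 and 2.57 with CL097. All 9 stimulated libraries lay below all 9 unstimulated ones. The log2 fold changes were -1.56 (SE 0.16, adjusted p = 8.4e-07), -0.99 (SE 0.16, adjusted p = 7.3e-05) and -1.20 (SE 0.17, adjusted p = 0.00044). The 8 platelet and megakaryocyte markers summed to 5.06 to 12.5 CPM in unstimulated and 4.67 to 10.4 CPM in stimulated libraries, and the ranges overlapped in each arm. Group means of the platelet glycoprotein gene Gp1ba were 0.78 log2 CPM without and -0.03 with agonist in Tlr9het, 1.05 and -0.61 in Tlr997, and 0.59 and -0.18 in Tlr779. Those of the platelet chemokine gene Ppbp were 0.17 and -0.13, 0.22 and -0.62, and 0.84 and 0.22. Both were thus lower with agonist in each genotype, as Rgs18 was, and so was the scarcer Treml1 (-1.70 and -2.14 in Tlr9het). Itga2b went the other way in each genotype, at 1.42 and 1.75, 0.56 and 1.44, and 0.98 and 1.08. Pf4, Gp9, Gp1bb and Clec1b differed in direction between genotypes. The part of platelet transcripts in the change of Rgs18 was not tested.

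Rgs1, a B cell regulator of Gi-coupled chemokine receptors, had the smallest mean change over the 3 responses among the members, -0.14. In unstimulated Tlr9het it was at 6.07, 5.96 and 5.06 log2 CPM and with CpG at 5.19, 5.38 and 4.88. In Tlr997 it was at 5.06 to 5.83 without and 5.13 to 5.47 with CpG. In Tlr779 it was at 5.50, 4.86 and 5.95 without and 5.60, 5.16 and 6.39 with CL097. The libraries of 1 group spread more than stimulation moved them, but libraries of the same number moved together: the 3 same-number differences were -0.88, -0.58 and -0.18 in Tlr9het and 0.10, 0.30 and 0.44 in Tlr779. The fold changes were -0.55 (SE 0.25, adjusted p = 0.06) in Tlr9het, -0.14 (SE 0.25, adjusted p = 0.63) in Tlr997 and 0.28 (SE 0.35, adjusted p = 0.51) in Tlr779. With the replicate block, Rgs1 was called lower in Tlr9het (SE 0.12, adjusted p = 0.0018), and its change in Tlr779 had an adjusted p of 0.034 with a size under the 0.5 threshold. It was called in Tlr9het also without replicate 3 of the unstimulated libraries, at -0.86 (adjusted p = 0.0018), without replicate 1 of unstimulated Tlr997 (adjusted p = 0.046) and without replicate 3 of it (adjusted p = 0.041), since these libraries share the fit.

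Rgs16 and Rgs13, small R4 members that are known from activated lymphocytes and from germinal center B cells, were scarce. Rgs16 was at 0.80 to 1.14 log2 CPM in unstimulated Tlr9het and -0.30 to 0.14 with CpG. Values in Tlr997 were 1.30, 0.57 and -0.40 without and -0.78, -0.43 and -2.04 with CpG, and in Tlr779 at 0.17 to 0.67 without and -0.98 to 0.13 with CL097. The groups were apart in each case, by little. It was called lower in Tlr997, at -1.57 (SE 0.51, adjusted p = 0.014), and this call was lost without replicate 1 of the unstimulated libraries (adjusted p = 0.07) or replicate 3 of those with CpG (adjusted p = 0.064). In Tlr9het the change was -1.13 (adjusted p = 0.062, and 0.03 with the replicate block), and in Tlr779 it was -0.92 (adjusted p = 0.085). It was also called in Tlr9het without replicate 3 of unstimulated Tlr997 (adjusted p = 0.027) or of Tlr997 with CpG (adjusted p = 0.034). With only the Tlr9het libraries fitted, Rgs16 was called too (adjusted p = 0.004). In Tlr779 it was called without replicate 1 of the CL097 libraries, at -1.24 (adjusted p = 0.034).

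Rgs13 was at 1.88 to 2.82 log2 CPM in unstimulated Tlr9het and at 1.97, 1.95 and 0.10 with CpG, a group that 1 low library widened. Tlr997 had it at 2.11 to 2.65 without and at 0.31, 2.69 and 1.05 with CpG, and Tlr779 at 1.80 to 2.58 without and 1.13 to 2.43 with CL097. The groups overlapped in all 3 responses, and the changes of -1.02 (95% interval -2.27 to 0.23), -1.02 (-2.27 to 0.24) and -0.53 (-1.43 to 0.37) were not called. With the replicate block it was called in Tlr9het (adjusted p = 0.037). It was called without replicate 2 of Tlr997 with CpG, at -1.69 (adjusted p = 0.012), and without replicate 3 of Tlr779 with CL097, at -0.95 (adjusted p = 0.026). The 7 germinal center B cell markers in the files summed to 147 to 188 CPM in unstimulated and 141 to 229 CPM in stimulated libraries. Mast cells also express Rgs13, and the 5 mast cell and basophil markers summed to 3.31 to 11.8 and 7.1 to 17.8 CPM. Fcer1a was under -2 log2 CPM in every library. Group means of Kit ran from 1.69 to 3.08 log2 CPM and those of Mcpt8 from 0.05 to 1.70. Cpa3 ran from -0.95 to 0.69 and Ms4a2 from -3.30 to -0.47. The part of such cells in the level of Rgs13 was not tested.

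Rgs10, Rgs12 and Rgs14 form the R12 subfamily, which acts on Gi subunits. Rgs12 and Rgs14 are larger proteins that also carry Ras-binding domains and a GoLoco motif, which holds Gi in its GDP-bound form. Rgs14 changed most of all members. In unstimulated Tlr9het it was at 4.55, 4.54 and 5.25 log2 CPM and with CpG at -0.22, 0.83 and 0.80. Its levels in Tlr997 were 4.72, 4.64 and 4.92 without and 0.16, 1.14 and -0.36 with CpG, and in Tlr779 at 5.20, 4.25 and 5.04 without and 1.05, 1.34 and 1.28 with CL097. No stimulated library came within 2 log2 units of an unstimulated one.

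Rgs14 fell 19.8-fold in Tlr9het, by 4.31 on the log2 scale (SE 0.37, adjusted p = 1.6e-07). The log2 changes were -4.45 (SE 0.37, adjusted p = 1.4e-07) in Tlr997 and -3.61 (SE 0.25, adjusted p = 1.4e-05) in Tlr779. Leaving out each library in turn kept them between -4.86 and -3.42. Over the 18 libraries, the genes with the pattern most like that of Rgs14 were Itgb7, which encodes the integrin beta 7 chain (Pearson r = 0.99), Zyx, which encodes the focal adhesion protein zyxin (0.988), and S100a10 (0.988), among 9365 genes with a mean over 2 log2 CPM. Itgb7 changed by -3.44, -3.91 and -2.93 on the log2 scale in the 3 responses. These correlations rest on the step between stimulated and unstimulated libraries, which all 4 genes share. For Rgs1, the member at the other end of the range, the most alike were Slfn5 (0.871), Trim21 (0.842) and Dnajc13 (0.841).

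Rgs10, one of the smallest RGS proteins, was at 2.70 to 2.86 log2 CPM in unstimulated Tlr9het and 2.37 to 2.54 with CpG. In Tlr997 it was at 2.49, 2.88 and 3.08 without and 1.70, 2.31 and 1.68 with CpG, and in Tlr779 at 2.65 to 2.83 without and 2.29 to 2.54 with CL097. Libraries with and without agonist were apart in each arm, but the change was called only in the fit of Tlr997, at -0.92 (SE 0.21, adjusted p = 0.0014). It was -0.32 (SE 0.21, adjusted p = 0.18) in Tlr9het and -0.33 (SE 0.16, adjusted p = 0.11) in Tlr779. The difference between the CpG responses, -0.60 (95% interval -1.23 to 0.04), was not called (adjusted p = 0.34).

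Rgs12, the largest of the members as a protein, was at 2.23 to 2.56 log2 CPM in unstimulated Tlr9het and 1.70 to 1.75 with CpG. The change of -0.67 was not called (adjusted p = 0.16), but it was with the replicate block (SE 0.23, adjusted p = 0.019). With only the Tlr9het libraries fitted, Rgs12 was called as well (adjusted p = 0.004), and so it was with array weights (-0.64, adjusted p = 0.03). In Tlr997 it was at 2.84, 1.93 and 0.84 without and at 2.25, 1.68 and 1.06 with CpG, a spread over libraries wider than any change (-0.21, 95% interval -1.11 to 0.69). In Tlr779 it was at 2.43 to 2.75 without and 1.94 to 3.15 with CL097, a change of 0.06 (-0.64 to 0.76).

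Rgs19, a palmitoylated member that acts on Gi and Gz subunits, was not called with CpG in either genotype. It was at 6.26, 6.25 and 6.48 log2 CPM in unstimulated Tlr9het and 6.08, 6.12 and 6.24 with CpG. In Tlr997 it was at 6.23, 6.39 and 6.11 without and 6.34, 6.14 and 6.19 with CpG. In Tlr779 it was at 6.30, 6.29 and 6.51 without and 5.74, 5.72 and 5.91 with CL097, which was apart from all other groups. The changes were -0.18 (95% interval -0.37 to 0.01) and -0.02 (-0.21 to 0.17) with CpG, neither called. With CL097 it was called lower, at -0.58 (SE 0.09, adjusted p = 0.00092), 1.49-fold, and the 3 same-number differences were -0.56, -0.57 and -0.60.

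The makeup of the summed RGS transcripts shifted as Rgs2 fell. Summed CPM per kb of the 10 genes was 128 ± 2.8 in unstimulated Tlr9het (mean ± SD, n = 3) and 49.7 ± 1.7 with CpG, 129 ± 4.4 and 53.2 ± 2.5 in Tlr997, and 132 ± 14 and 61.7 ± 11 in Tlr779. Rgs2 made up 47.9% ± 1.8 of this sum in unstimulated Tlr9het and 8.51% ± 0.93 with CpG, 51.4% ± 4.3 and 10.2% ± 0.40 in Tlr997, and 50.5% ± 1.4 and 31.0% ± 1.0 in Tlr779. Rgs19 went from 28.3% to 64.1%, from 26.4% to 63.1% and from 28.1% to 40.9%. The share of Rgs19 was thus above that of Rgs2 in each stimulated group, although Rgs19 itself was not called higher in any response and was called lower with CL097. Its share was larger because the sum was smaller. Rgs14 made up 4.96% to 5.21% in unstimulated and 0.60% to 0.914% in stimulated groups. These shares depend on the gene lengths used, but with coding transcript lengths Rgs2 again went from 47.7% to 8.39% in Tlr9het.

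**Figure D3:**
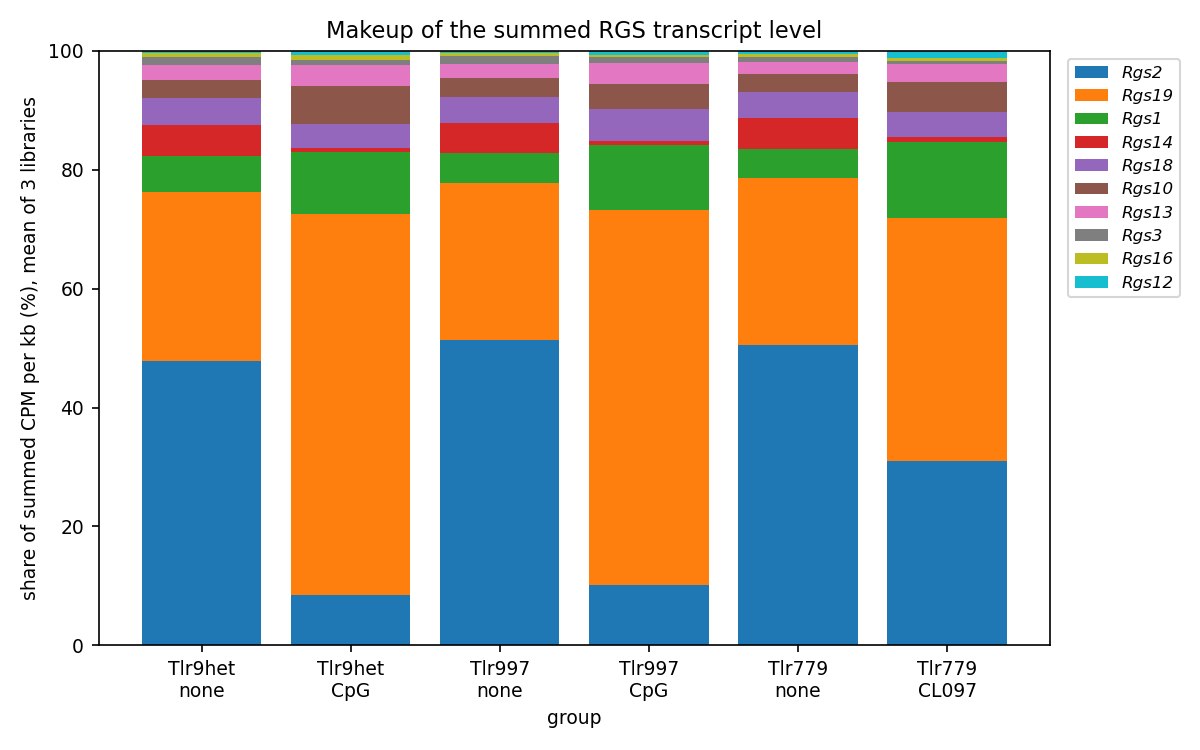
Share of each member in the summed CPM per kb of exon of the 10 genes (y axis, %), as the mean of 3 libraries in each of the 6 groups (x axis; none, no agonist). Rgs2 holds 47.9% to 51.4% in unstimulated groups, 8.51% and 10.2% with CpG and 31.0% with CL097.

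The comparison of genotypes asks whether the TIR domain of TLR7 in place of that of TLR9 alters the members. Without agonist, 0 of 10 members were called in limma's fit where 0.0174% of all genes were, and 0 had an unadjusted p under 0.05, against 10.8% of all genes. The estimates ran from -0.53 (Rgs16, 95% interval -1.63 to 0.57) to 0.11 (Rgs2, -0.10 to 0.33). With CpG, 0 of 10 were called, against 2.73% of all genes, and 3 had an unadjusted p under 0.05, against 19.0%. Rgs2 was 0.37 higher in Tlr997 than in Tlr9het (SE 0.10, adjusted p = 0.049), and the 2 groups of libraries did not overlap, but its size was under the 0.5 threshold. Rgs18 was 0.53 higher (SE 0.16, adjusted p = 0.07), again with no overlap. It passed both thresholds without replicate 3 of unstimulated Tlr997 (adjusted p = 0.037) or replicate 1 of Tlr997 with CpG (0.67, adjusted p = 0.034). Rgs10 was lower, at -0.55 (adjusted p = 0.16), and so was the scarce Rgs16, at -0.98 (95% interval -2.08 to 0.12, adjusted p = 0.33). The libraries of Rgs10 and Rgs16 did not overlap between the genotypes either. The share of all genes without overlap was not counted, so the lack of overlap has no background to stand against.

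The CpG responses of the 2 genotypes were compared by an interaction term. Of the 10 members, 0 were called by limma, against 1.54% of all genes, and 1, Rgs18, had an unadjusted p under 0.05, against 16.0%. Its response was 0.57 smaller in size in Tlr997 (95% interval 0.09 to 1.05, adjusted p = 0.23). For Rgs2 the interval of the difference was -0.05 to 0.56, for Rgs3 -0.47 to 0.79 and for Rgs14 -1.27 to 0.99, which is the widest of these.

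The CL097 response of Tlr779 was set against the CpG response of Tlr9het in a fit of all 18 libraries. The agonist and its dose, the receptor, the genotype and the sex of the mice differ together here and cannot be told apart. In this comparison, 1 of 10 members was called, against 20.3% of 11676 genes. Rgs2 fell less with CL097 than with CpG, with a difference of 2.05 on the log2 scale (95% interval 1.65 to 2.44, adjusted p = 1.7e-06), which is 4.13-fold. The difference stayed between 1.87 and 2.16 when each library was left out. The unstimulated levels of Rgs2 overlapped between the arms, at 7.79 ± 0.06 in Tlr9het and 7.91 ± 0.15 in Tlr779 (SD, n = 3).

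Rgs19 fell more with CL097, with a difference of -0.40 (SE 0.13, adjusted p = 0.029), under the 0.5 threshold. Rgs1 differed by 0.83 (SE 0.45, adjusted p = 0.18), and with the replicate block it was called (SE 0.17, adjusted p = 0.0026), as 1 of 2 members against 23.0% of all genes. For Rgs3 (-0.20, 95% interval -0.79 to 0.38), Rgs18 (0.36, -0.09 to 0.82) and Rgs14 (0.70, -0.36 to 1.76) no difference was called. The CL097 libraries of Rgs14 nevertheless all lay above those of Tlr9het with CpG, the lowest at 1.05 against a highest of 0.83.

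**Figure D4:**
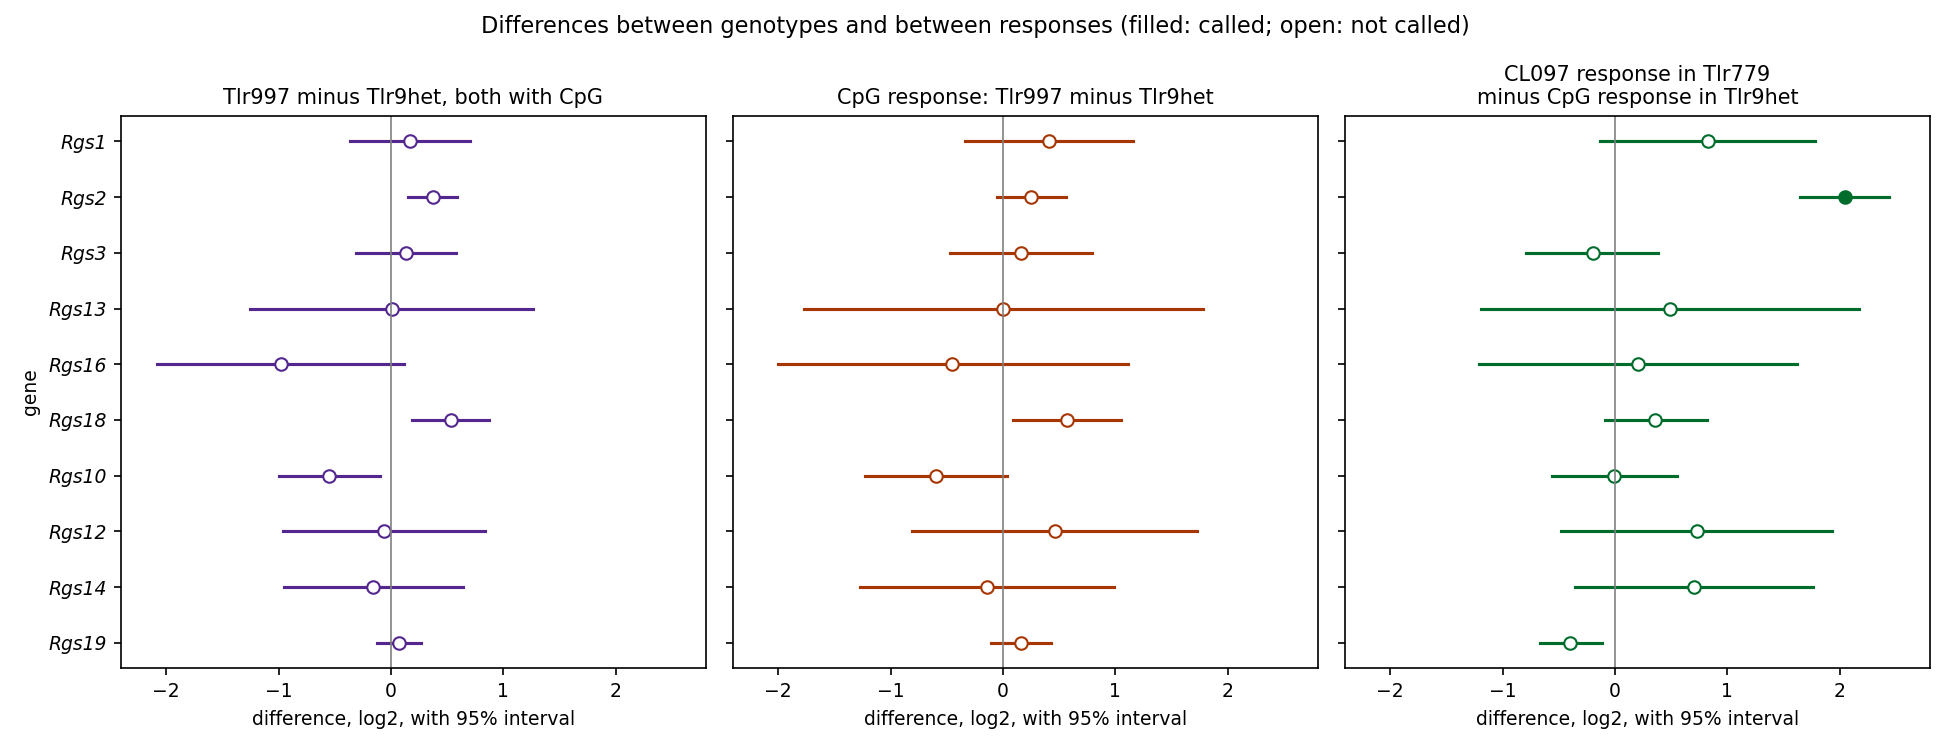
Differences in log2 units with 95% intervals from limma (x axes) for each member: Tlr997 minus Tlr9het, both with CpG (left), the difference of the CpG responses, Tlr997 minus Tlr9het (middle), and the CL097 response in Tlr779 minus the CpG response in Tlr9het (right). The only filled, called point is Rgs2 on the right, at 2.05.

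The members varied together to unequal degree. Over the 18 libraries, Pearson's r was 0.94 between Rgs2 and Rgs14, 0.93 between Rgs14 and Rgs18, 0.91 between Rgs2 and Rgs18 and 0.89 between Rgs3 and Rgs14, and it was between -0.03 and 0.51 for Rgs1 with each other member. The points share the step of stimulation, so that these values describe the same falls again. Within the cluster on chromosome 1, the log2 changes with CpG in Tlr9het were -3.86 for Rgs2, -1.56 for Rgs18, -1.02 for Rgs13 and -0.55 for Rgs1. The last 2 were not called in limma's fit, but both were with the replicate block (adjusted p = 0.037 and 0.0018). Rgs1 was also called with array weights (adjusted p = 0.0062) and without some single libraries. The differences between these neighbours were not tested.

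The receptors and G protein genes around the RGS genes were taken from lists. Their counts stand against 28.2% of all genes called lower and 29.7% higher with CpG in Tlr9het, 26.0% and 29.6% in Tlr997, and 23.6% and 22.7% with CL097, and lists this short give only coarse shares. Of 15 chemoattractant receptors, 14 were tested, with 8 called lower and 2 higher with CpG in Tlr9het, 9 lower and 2 higher in Tlr997, and 10 lower and 3 higher with CL097 in Tlr779. Their median change was -1.85, -1.48 and -1.08, against 0.04, 0.07 and -0.02 over all genes. Cnr2, the cannabinoid receptor of B cells, went from 7.95, 7.94 and 8.11 log2 CPM to 3.89, 3.91 and 3.90 with CpG in Tlr9het (-4.10, SE 0.09, adjusted p = 7.4e-13). S1pr4, a sphingosine 1-phosphate receptor, changed by -3.71, -4.19 and -2.94 in the 3 responses. Cxcr4, the CXCL12 receptor, changed by -3.33 (SE 0.14, adjusted p = 1.1e-10) in Tlr9het.

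Some receptors rose. Ccr7, the receptor for T zone chemokines, changed by 1.27, 1.16 and 1.63 and Gpr183, the oxysterol receptor that guides B cells to outer follicles, by 1.13, 0.56 and 0.81, all called. Cxcr5, the follicular chemokine receptor, was called higher with CL097, at 0.54. Ccr7 and Cxcr5 were picked out after their values were seen. In the comparison of CL097 with CpG, 7 receptors were called with a positive and 1 with a negative difference, against 20.3% of all genes called in either direction, among them Cnr2 (2.36, SE 0.19, adjusted p = 4.7e-07) and Cxcr4 (2.25, SE 0.23, adjusted p = 3.5e-06), of a size like that of Rgs2.

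S1pr1, which lets B cells leave lymphoid tissue, fell more with CpG in Tlr997, the responses differing by -1.21 (SE 0.18, adjusted p = 0.0041). Its levels were 6.38, 6.28 and 6.40 log2 CPM in Tlr9het and 4.90, 5.41 and 4.85 in Tlr997, both with CpG. With CpG, Gpr183 was also lower in Tlr997 than in Tlr9het (-0.60, SE 0.10, adjusted p = 0.0028), while the sphingosine 1-phosphate receptor S1pr3 was higher (0.55, SE 0.14, adjusted p = 0.041). Among the receptors, 0 were called between unstimulated genotypes.

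Of 10 G alpha genes tested with CpG, 6 were called lower and 1 higher in both genotypes, and with CL097 3 of 9 were lower and 0 higher. Gna15, a Gq class subunit of blood cells, changed by -1.68 (adjusted p = 8.7e-05), -2.03 (adjusted p = 1.6e-05) and -2.17 (adjusted p = 0.015). Gnaz, whose product RGS19 acts on, was called higher with CpG (2.05 in Tlr9het, adjusted p = 0.013) from a level of -1.84 log2 CPM, and it passed the filter through its stimulated libraries. Of 11 G beta and gamma genes, 4 were lower and 3 higher in Tlr9het and 4 lower and 2 higher in Tlr997, and with CL097 4 of 9 were lower and 1 was higher, counts near those shares of all genes. Gng2 changed by -2.84, -3.02 and -1.88 and Gng4 by 2.05, 2.07 and 1.92, all called.

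Other genes that limit or redirect receptor signals followed. Of 7 receptor kinases and arrestins, 5, 5 and 6 were called lower and 0 higher in the 3 responses, and the arrestin gene Arrb1 changed by -2.52, -2.92 and -1.32. The 3 RhoGEFs with an RGS homology domain were all called lower with CpG in Tlr9het, and 2 of 3 in Tlr997 and with CL097. Arhgef1, which links G12 and G13 to RhoA, changed by -2.51 (SE 0.08, adjusted p = 1.4e-11) with CpG in Tlr9het and by -1.13 (SE 0.10, adjusted p = 4.4e-05) with CL097, a difference of 1.39 (SE 0.13, adjusted p = 2.2e-06). Of 5 other regulators of G alpha, 2 were called lower and 1 higher in each response. Gpsm3, a GoLoco protein of blood cells, changed by -2.88, -2.82 and -1.84 and Gpsm1 by 0.68, 0.64 and 0.64.

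Of the G protein effectors, 9 were tested with CpG, with 4 lower and 1 higher in Tlr9het and 4 lower and 2 higher in Tlr997, and 4 of 8 were lower and 0 higher with CL097. Adcy7, the adenylyl cyclase of lymphocytes, changed by -3.89 (SE 0.13, adjusted p = 1.5e-11), -3.80 and -2.54. Pik3cg, the catalytic subunit of the PI3 kinase that G beta-gamma activates, changed by -2.06, -2.54 and -1.29. Its partner subunit Pik3r5 differed in the CpG response, with 5.34, 5.37 and 5.36 log2 CPM going to 5.13, 5.26 and 5.32 in Tlr9het and 4.88, 5.10 and 5.30 going to 5.67, 5.88 and 5.84 in Tlr997 (difference 0.82, SE 0.14, adjusted p = 0.012).

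**Figure D5:**
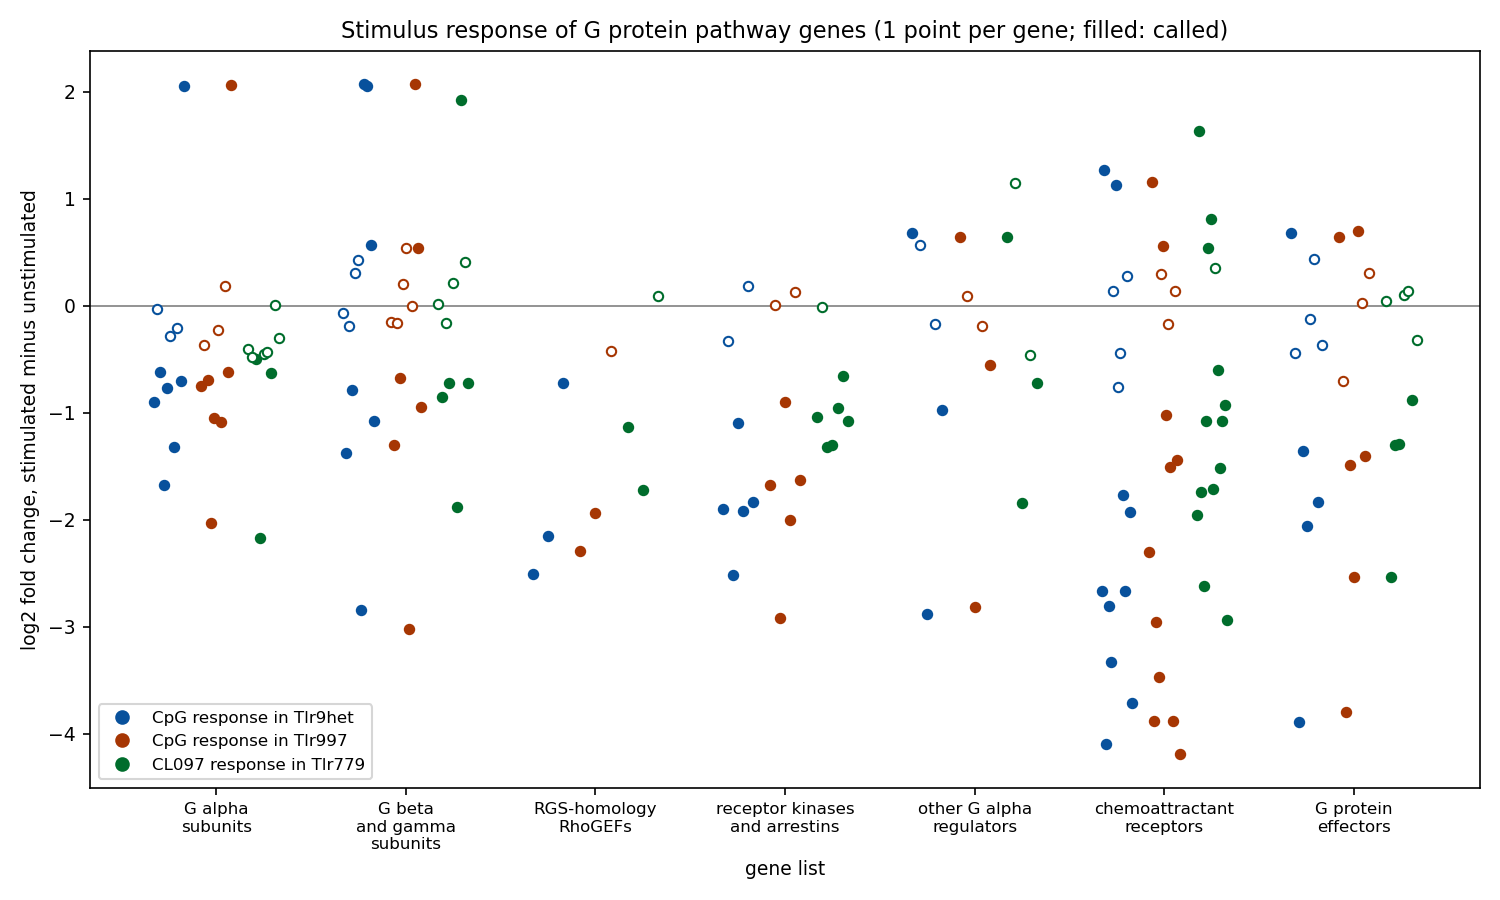
Log2 fold change (y axis) of each tested gene of 7 G protein pathway lists (x axis) in the 3 stimulus responses, with 1 point per gene and called genes filled. Receptor kinases and arrestins hold 0 genes called higher, and the chemoattractant receptors reach from -4.19 to 1.63.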

How the data were processed

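Total RNA of bead-purified B cells was made into TruSeq Stranded mRNA libraries. Per the labels and the study's methods, the authors aligned reads with STAR 2.6.1a to mm10, counted them per gene with featureCounts (Subread 2.0.1) and applied quantile normalization and voom of limma. The deposited values were log2 CPM, with 1 file per sample and no counts. Depth per library is unknown. If the most frequent low value, -5.05, is voom's offset of 0.5 counts, 3 counts lie at -2.24. The offset understates the change of low genes.

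Of 6209 genes below -4 in all 18 libraries, 6008 had a single value for each replicate number (within 0.0015), which for 524 differed between numbers. These values look as if an offset per gene and number had been taken out over both arms at once. The study's methods state no such step, and if one was made, the fit without a block does not count it.

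Genes over 0 log2 CPM in at least 3 fitted libraries were fitted with limma 3.58.1 in R 4.3.3, with a mean per group, a variance trend and Benjamini-Hochberg adjustment over all genes tested. The first arm was fitted in 12 libraries, the CL097 response in 6 and the comparison of arms in 18. A call needed an adjusted p under 0.05 and a change of over 0.5 on the log2 scale in either direction. The steps were tested on simulated data. Same-number libraries were checked for pairing by the correlation of deviations from group means: 0.524, 0.27 and 0.514 in Tlr9het, 0.219, 0.413 and 0.284 in Tlr779 (taken as paired) and 0.394, 0.066 and 0.036 in Tlr997 (not). The treatment protocol describes stimulated and unstimulated cells of the same mice.

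The members and gene lists were chosen with earlier results of these data known. All members were named in each comparison, and from each other list up to 3 called genes of largest change per stimulus response and those called between genotypes or responses, of which not every one is named. Marker lists covered B cells, T cells, macrophages and monocytes, neutrophils, platelets, erythroid, NK, plasmacytoid dendritic and mast cells, germinal center, marginal zone and age-associated B cells and plasmablasts. Gene coordinates and lengths came from GENCODE and promoters from RefSeq. Alternatives were a replicate block, other filters, fold thresholds, variance settings, scalings and sets of libraries, and leaving out each library.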

Additional observations from a re-analysis of the deposited data

Results flagged for a closer look

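Rgs2 is listed because its stimulus response differed between arms: the CL097 response in Tlr779 minus the CpG response in Tlr9het was 2.05 on the log2 scale (SE 0.18, limma adjusted p = 1.7e-06). All 3 same-number differences were negative in both, at -4.04, -3.64 and -3.90 with CpG and -2.03, -1.86 and -1.55 with CL097. Rgs1 is listed because all 3 same-number differences were negative with CpG in Tlr9het and positive with CL097 in Tlr779. The tested difference was 0.83 (adjusted p = 0.18, or 0.0026 with the replicate block). The agonist and its dose, receptor, genotype, sex, cells per condition and the ages in the study's methods differ together between these arms, and their parts were not tested.

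In the comparison of the CpG response between genotypes, S1pr1 differed by -1.21 (SE 0.18, adjusted p = 0.0041) and Pik3r5 by 0.82 (SE 0.14, adjusted p = 0.012). Both are genes of the surrounding pathway and not RGS genes. No cause was tested for any of the 4.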

How the results depend on the processing

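The number of members called with CpG in Tlr9het was 4, against 8 with the replicate block and 7 with array weights. It was 6 with only the Tlr9het libraries fitted and 6 without replicate 3 of unstimulated Tlr997. Between the genotypes with CpG it was 0, and 1 with any fold change (Rgs2), without a variance trend or with array weights (Rgs18 in both), and 0 to 1 without each library. In the comparison of arms it was 1, and 2 with any fold change (Rgs19 added) or the replicate block (Rgs1 added). In the other comparisons the count stayed within 1.5 times. With the block it was 7 against 6 in Tlr997 and 5 in Tlr779, where Rgs13 in Tlr997 was the added call. Of 1647 alternative values of the members, 0 turned the sign of a called change, 28 gained a call, 5 lost one and 51 turned the sign of an uncalled change.

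Over all genes, the counts differed by more than 1.5 times mainly in the small comparisons: for the difference of CpG responses, 177 genes were called, against 328 with the replicate block, 377 with array weights, 78 without a filter, 98 without a trend and 46 at a fold change over 1 on the log2 scale, and 87 to 295 when each library was left out (87 without replicate 1 of unstimulated Tlr9het, 101, 101 and 90 without replicates 1, 2 and 3 of Tlr9het with CpG, and 295 without replicate 3 of unstimulated Tlr997). Between the genotypes with CpG, 314 were called, against 680, 485, 188 and 74 with any fold change, array weights, no filter and that larger fold change, and 187 without replicate 1 of Tlr9het with CpG. The larger fold change left 4058 of 6650 genes with CpG in Tlr9het. The cause was not tested. Without counts, the depth behind each value is unknown, which limits Rgs16, Rgs13, and Rgs14 after stimulation most.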
